A study of Mus musculus with 87 samples.

Results

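Gene expression in the hypothalamus was compared with that in the periaqueductal gray (PAG), a midbrain region, on 24 of the 87 arrays of a survey of adult mouse brain regions. The members were chosen by their labelled region: 12 hypothalamus arrays and 12 PAG arrays, 2 for each of 6 inbred strains, namely A/J, FVB/NJ, DBA/2J, C57BL/6J, 129S6/SvEvTac and C3H/HeJ. All mice were wild-type males 8 weeks old, and each array held RNA pooled from 2 mice, except 1 hypothalamus array of FVB/NJ and 1 PAG array of A/J, which held RNA of 1 mouse each. For both regions 10000 ng of total RNA was labelled with biotin in 1 round and hybridised to Affymetrix MG_U74Av2 arrays, on which a probe set of short oligonucleotides stands for a transcript. Strain was the blocking factor of the comparison. The labels name some animals on more than 1 array, within a region for C57BL/6J hypothalamus and across the regions for C3H/HeJ and DBA/2J. The main fit treats all arrays as independent, so the p-values below measure the spread between these arrays, which may in part be technical.

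The hypothalamus regulates hormone release, feeding, body temperature, water balance and sleep, largely through small groups of neurons that make neuropeptides. A neuropeptide is translated as a longer precursor, cut by proteases inside dense-core vesicles and released onto receptors coupled to G proteins. The PAG surrounds the aqueduct of the midbrain, takes part in pain control and defensive behaviour, and encloses the serotonergic neurons of the dorsal raphe at its ventral side. In bulk tissue, fewer cells of a type and less RNA per cell cannot be told apart.

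Promoter sequences of 4 genes are shown because these genes mark the extremes of the comparison: Avp and Oxt, 2 hypothalamic hormone genes, were the furthest above in hypothalamus, and Slc6a4 and En1 the furthest below. Each runs from 250 bases before to 50 bases after the start of the RefSeq transcript in mouse build GRCm38.p6, written in the direction of transcription. Capitals mark the letters CATAAA on either strand, the palindrome CACGTG, and GC boxes, spelled GGGCGG, on either strand. These motifs were chosen after the sequences had been read.
Avp, chr2:130582539-130582838, minus strand: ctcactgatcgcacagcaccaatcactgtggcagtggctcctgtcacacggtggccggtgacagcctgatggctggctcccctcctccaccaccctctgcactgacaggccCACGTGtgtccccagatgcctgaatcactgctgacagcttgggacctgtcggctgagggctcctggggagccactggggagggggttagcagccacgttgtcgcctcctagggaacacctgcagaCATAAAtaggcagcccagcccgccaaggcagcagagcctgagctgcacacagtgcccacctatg
Oxt, chr2:130575919-130576218, plus strand: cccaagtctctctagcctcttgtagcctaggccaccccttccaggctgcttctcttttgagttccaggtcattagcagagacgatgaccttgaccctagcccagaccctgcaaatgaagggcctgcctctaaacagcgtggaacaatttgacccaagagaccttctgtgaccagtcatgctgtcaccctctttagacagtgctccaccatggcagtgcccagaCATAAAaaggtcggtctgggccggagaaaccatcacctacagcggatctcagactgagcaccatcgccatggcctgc
Slc6a4, chr11:76998347-76998646, plus strand: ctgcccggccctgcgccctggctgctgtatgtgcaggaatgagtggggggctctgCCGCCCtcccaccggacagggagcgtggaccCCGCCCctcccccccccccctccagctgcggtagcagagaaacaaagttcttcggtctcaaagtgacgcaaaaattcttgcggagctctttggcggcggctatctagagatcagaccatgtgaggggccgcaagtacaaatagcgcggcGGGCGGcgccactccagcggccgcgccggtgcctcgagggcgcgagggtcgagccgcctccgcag
En1, chr1:120602237-120602536, plus strand: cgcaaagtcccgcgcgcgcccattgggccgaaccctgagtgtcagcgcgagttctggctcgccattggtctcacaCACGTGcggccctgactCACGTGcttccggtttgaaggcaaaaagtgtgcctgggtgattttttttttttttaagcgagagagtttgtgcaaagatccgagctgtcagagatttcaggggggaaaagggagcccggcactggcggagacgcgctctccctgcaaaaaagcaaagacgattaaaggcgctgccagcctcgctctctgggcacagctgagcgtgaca
Avp and Oxt are neighbours on chromosome 2, lie on opposite strands and each held 1 CATAAA, which began 14 bases before the start in Avp and 27 bases before it in Oxt. CATAAA occurred in 11.9% of the 32851 promoters of the same length in the table, CACGTG in 7.15% and GGGCGG in 35.7%. The promoters of Avp and Oxt held 8 and 6 CpG dinucleotides, and those of Slc6a4 and En1 held 28 and 23. Over the 15 genes furthest above in hypothalamus, 13 had a promoter in the table, with a median of 7 CpG, as in all promoters. Over the 15 furthest below, 12 had one, with a median of 17 CpG. A match to these letters is a description of the window and does not show that a factor binds there.

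The median intensity of an array was 55.9 to 65.7 in hypothalamus and 51.3 to 59.5 in PAG, and the 2 arrays of a strain and region correlated at 0.965 to 0.989 over the tested probe sets. Of 12422 probe sets, 7310 entered the test because the mean of at least 1 of the 12 groups of strain and region exceeded the median of all values, an intensity of 58.1. All differences below are hypothalamus minus PAG on the scale log2(intensity + 16), so folds of genes near background depend on the added 16. With limma and Benjamini-Hochberg adjustment over all 7310, 81 probe sets (1.11%) were at least 2-fold higher in hypothalamus and 41 (0.561%) at least 2-fold lower at adjusted p below 0.05. Of these 122, 117 had the same sign of the difference in all 6 strains, and in 83 no hypothalamus array overlapped a PAG array, against 257 (3.52%) of all tested probe sets. Smaller differences were common: at any size, 1388 probe sets (19%) were higher and 1342 (18.4%) lower, and 2386 of these 2730 (37.3% of those tested) differed by less than 1.5-fold. The split at any size depended on scaling, since 50.8% of these calls were higher with the values as deposited and 23.7% (659 higher, 2123 lower) with each array centred on its median. With scan day as a random block 1683 were called, 759 higher and 924 lower, and only 1 of 10 scan days held both regions. A probe set dim in every group of 1 region was tested only if a group mean of the other region exceeded 58.1. This favours a difference but does not require one. Through hypothalamus arrays only, 523 were tested, of which 41 were among the 81 higher. Through PAG arrays only, 180 were tested, of which 10 were among the 41 lower. Genes named below that were tested through hypothalamus arrays only include Sytl4, Kcna5, Fmod, Ogn and Tshb. Those tested through PAG arrays only include Shox2, Klk6, Robo1, Mab21l2 and Alox15.

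**Figure D1:**
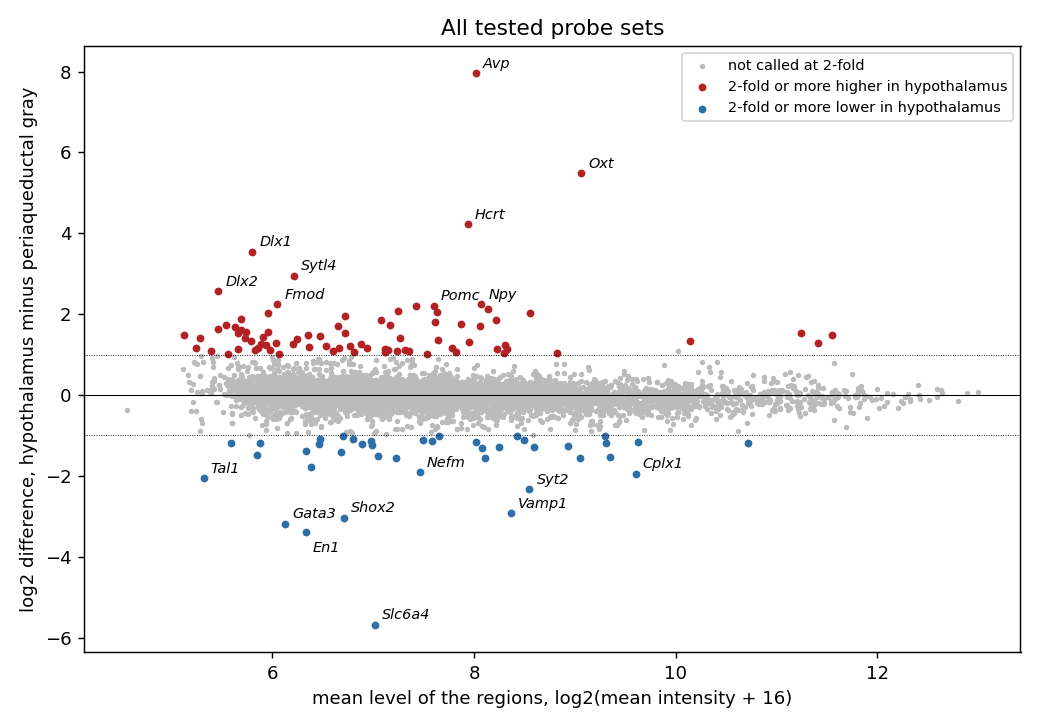
Log2 difference (hypothalamus minus periaqueductal gray, y axis) against the mean level of both regions (log2(mean intensity + 16), x axis) for the 7310 tested probe sets. Red points mark the 81 at least 2-fold higher and blue points the 41 at least 2-fold lower in hypothalamus, dotted lines mark 2-fold, and Avp at 7.95 and Slc6a4 at -5.68 lie furthest from 0.

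Hypothalamic neuropeptide genes were the list with the largest median difference. Of 27 genes in a list of hypothalamic neuropeptides, 14 had a probe set of their own here and 13 were tested: 13 were higher in hypothalamus, 0 were lower and 0 did not pass the test (median log2 difference 2.02). Over all 5579 tested genes, 1045 were higher, 1055 were lower and the median was 0.03, to be set beside every list count below. In 10 of the 13, against 3.52% of all tested probe sets, no hypothalamus array overlapped a PAG array. Of the 13, 4 were tested through hypothalamus arrays only, which favours a difference in that direction. Pmch, Agrp, Cartpt, Crh and Kiss1 was not analysed here.

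The intensity of Avp, the precursor of vasopressin, which acts on the kidney to retain water, was 3193 to 5653 in hypothalamus arrays (median 3878), against -24.1 to 8.05 in PAG arrays (median -8.83). Every hypothalamus array stood far above every PAG array, and most PAG values lay below 0, that is, below the subtracted background. The log2 difference of 7.95 ± 0.08 (SE, adjusted p = 8.9e-26) therefore rests on the added 16 and is not a bound on the ratio. Oxt, the precursor of oxytocin, which acts in birth, lactation and social behaviour, measured 2101 to 5375 in hypothalamus arrays (median 3439), against 38.1 to 84.8 in PAG arrays (median 60.7), with no overlap and a log2 difference of 5.49 ± 0.12 (SE, adjusted p = 2.6e-19). Hcrt, the precursor of the wake-promoting orexins of the lateral hypothalamus, measured 320.0 to 1770.4 in hypothalamus arrays (median 1122), against 14.7 to 61.7 in PAG arrays (median 40.5). Its lowest hypothalamus array was still more than the highest PAG array, and the log2 difference was 4.22 ± 0.20 (SE, adjusted p = 2.5e-13). These 3 genes were also seen in the bed nucleus of the stria terminalis, a neighbour of the anterior hypothalamus labelled in the same way, where mean intensities over 13 arrays were 798 ± 274 (SD) for Avp, 2587 ± 558 for Oxt and 783 ± 448 for Hcrt.

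Peptides of the arcuate nucleus, which controls appetite and pituitary hormones, rose as well. Npy, which drives feeding, measured 348 to 717 in hypothalamus arrays (median 559.9), against 88.7 to 191 in PAG arrays (median 97.5), without overlap (log2 difference 2.24 ± 0.12 SE, adjusted p = 1.1e-12). Pomc, the precursor of melanocortins and beta-endorphin, measured 209 to 709.8 in hypothalamus arrays (median 313), against 26.4 to 355 in PAG arrays (median 56.0). The arrays of the regions overlapped for Pomc through 1 PAG array of FVB/NJ, at 355, which also had the highest Gh of the PAG arrays, and the log2 difference was 2.21 ± 0.26 (SE, adjusted p = 7.2e-07). In 12 arrays of the pituitary gland, where Pomc is the precursor of corticotropin, its mean intensity was 13033 ± 1067 (SD). Ghrh, which releases growth hormone, measured 77.4 to 139 in hypothalamus and 42.4 to 60.6 in PAG, with a log2 difference of 0.88 ± 0.06 (SE, adjusted p = 2.4e-10).

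The remaining peptides differed to various degrees. Trh, which releases thyrotropin, measured 264 to 483 in hypothalamus and 44.0 to 134 in PAG, without overlap (log2 difference 1.80 ± 0.09 SE, adjusted p = 1.6e-12). Gal, the precursor of galanin, measured 372 to 859 in hypothalamus and 91.6 to 252 in PAG, also without overlap (log2 difference 1.85 ± 0.09 SE, adjusted p = 9.4e-13). Adcyap1, the precursor of the peptide PACAP, differed by 1.23 ± 0.09 (SE, adjusted p = 2.3e-10) and Sst, the precursor of somatostatin, which holds back growth hormone release, by 0.75 ± 0.08 (SE, adjusted p = 1.1e-07), and neither overlapped. Gnrh1, which controls the gonadal axis, measured 41.1 to 107 in hypothalamus arrays (median 61.9), against 23.6 to 93.5 in PAG arrays (median 34.3), with the smallest difference of the list, 0.52 ± 0.13 (SE, adjusted p = 0.0027), and overlapping arrays.

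**Figure D2:**
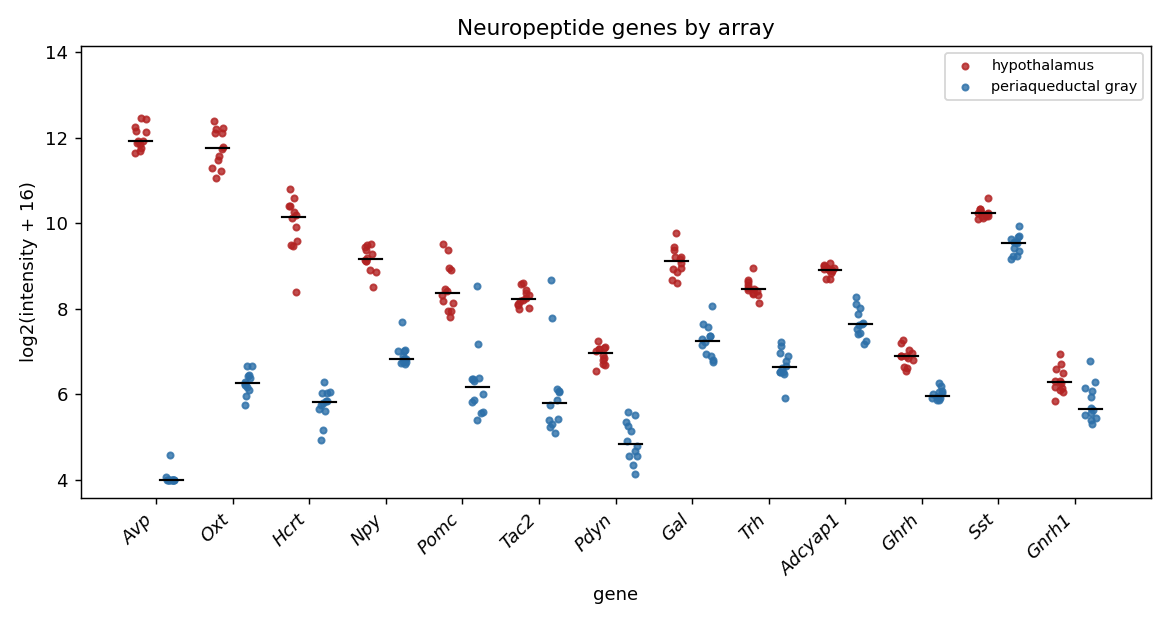
Intensity of the 13 tested neuropeptide genes in each array, as log2(intensity + 16), with 12 hypothalamus arrays (red, left) and 12 periaqueductal gray arrays (blue, right) per gene and the median as a black bar. The regions overlap in Pomc, Tac2 and Gnrh1, in Tac2 through 1 periaqueductal gray array at 391.

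Opioid and tachykinin genes, which both regions use in pain and stress circuits, did not move as 1 group. Of the 10 tested members, 5 were higher in hypothalamus, 3 were lower and 2 did not pass the test (median log2 difference 0.12), and 1 of the 10 was tested through hypothalamus arrays only and 2 through PAG arrays only. Pdyn, the precursor of dynorphins, measured 77.3 to 136 in hypothalamus arrays (median 109.8), against 1.70 to 32.4 in PAG arrays (median 12.8), without overlap (log2 difference 2.02 ± 0.14 SE, adjusted p = 1.4e-10), and a second Pdyn probe set differed by 0.63. Tac2, the precursor of neurokinin B, measured 241 to 369 in hypothalamus arrays (median 286), against 18.2 to 391 in PAG arrays (median 39.8). The high PAG values were in A/J replicate 2 (391) and DBA/2J replicate 2 (204), and the log2 difference was 2.20 ± 0.28 (SE, adjusted p = 2.2e-06). Tac1, the precursor of substance P, was higher by 0.54 ± 0.09 (SE, adjusted p = 3.7e-05), and Oprl1, the nociceptin receptor, by 0.25 ± 0.09 (SE, adjusted p = 0.037). Oprl1 was not called in 12 of the 24 fits that left out 1 array (adjusted p up to 0.072). Members lower in hypothalamus were Cck, the precursor of cholecystokinin, at -0.92 ± 0.10 (SE, adjusted p = 2e-07), Pnoc, the precursor of nociceptin, at -0.69 ± 0.13 (SE, adjusted p = 0.00022), and Penk, the precursor of enkephalins, at -0.27 ± 0.08 (SE, adjusted p = 0.015). The receptor genes Tacr1 (-0.17, adjusted p = 0.27) and Cckbr (-0.01, adjusted p = 0.97) did not pass the test.

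Transcription factors that shape the hypothalamus and ventral forebrain were higher in hypothalamus. Of 17 tested members of that list, 14 were higher in hypothalamus, 0 were lower and 3 did not pass the test (median log2 difference 0.76), but 11 of the 17 were tested through hypothalamus arrays only. Dlx1 and Dlx2 are homeobox factors of GABAergic forebrain neurons. Dlx1 measured 134 to 223 in hypothalamus arrays (median 180.2), against -18.1 to 5.94 in PAG arrays (median -7.41). Dlx2 measured 72.4 to 138 in hypothalamus arrays (median 94.4), against -9.49 to 14 in PAG arrays (median 1.03). Neither gene overlapped between the regions, and their log2 differences were 3.54 ± 0.06 (SE, adjusted p = 2e-21) and 2.57 ± 0.10 (SE, adjusted p = 8e-15). Sim1, needed for the vasopressin and oxytocin neurons of the paraventricular nucleus, measured 45.5 to 90.9 in hypothalamus and 1.26 to 25.3 in PAG, and Isl1, a LIM homeobox factor of arcuate neurons, 48.7 to 95.4 in hypothalamus and 2.94 to 27.0 in PAG, with log2 differences of 1.68 ± 0.11 (SE, adjusted p = 1.4e-10) and 1.57 ± 0.11 (SE, adjusted p = 1.6e-10). Six3, a homeobox factor of the anterior forebrain, differed by 1.48 ± 0.07 (SE, adjusted p = 8.4e-13).

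Receptors, processing enzymes and imprinted genes showed smaller differences. Among the 10 tested hypothalamic receptors, 6 were higher in hypothalamus, 1 was lower and 3 did not pass the test (median log2 difference 0.51). Of the 10, 4 (Npy1r and Calcr among them) were tested through hypothalamus arrays only and 1, Htr2c, through PAG arrays only. This route favours a difference. Npy2r and Npy1r, receptors of neuropeptide Y, differed by 1.42 ± 0.09 (SE, adjusted p = 3.6e-11) and 0.96 ± 0.13 (SE, adjusted p = 4.9e-06), and Calcr, the calcitonin receptor, by 1.08 ± 0.06 (SE, adjusted p = 6.5e-12). Ghr, the growth hormone receptor, was higher by 0.56 ± 0.06 (SE, adjusted p = 9.9e-08), whereas Htr2c, a serotonin receptor, was lower, at 15.3 to 45.7 in hypothalamus arrays (median 31.0), against 46.5 to 89.6 in PAG arrays (median 57.2), without overlap (log2 difference -0.75 ± 0.10 SE, adjusted p = 2.3e-06). Of 12 genes of peptide processing and dense-core vesicles, 4 were higher in hypothalamus, 0 were lower and 8 did not pass the test (median log2 difference 0.07), among them the granin Scg2 at 0.45 ± 0.05 (SE, adjusted p = 7.3e-08) and the protease Pcsk1 at 0.33 ± 0.06 (SE, adjusted p = 0.00029).

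Imprinted genes, expressed from 1 parental allele, leaned upward. Of 16 tested, 11 was higher in hypothalamus, 0 were lower and 5 did not pass the test (median log2 difference 0.51), and 2 of the 16 were tested through hypothalamus arrays only. Magel2, a gene of the Prader-Willi region, measured 341 to 489 in hypothalamus arrays (median 411), against 76.6 to 144 in PAG arrays (median 114). All hypothalamus arrays exceeded all PAG arrays, and the log2 difference was 1.76 ± 0.07 (SE, adjusted p = 2.2e-14). Plagl1, a zinc finger factor, and Peg10, a gene derived from a retrotransposon, differed by 0.95 ± 0.08 (SE, adjusted p = 2.4e-09) and 0.80 ± 0.11 (SE, adjusted p = 8.7e-06). Igf2, which is also a meningeal gene, is described with the meninges.

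Other neuronal genes stood among the 15 furthest above in hypothalamus. Sytl4, which docks dense-core granules at the membrane, measured 144 to 239 in hypothalamus arrays (median 184), against 0.09 to 35.2 in PAG arrays (median 12.5), without overlap, with a log2 difference of 2.95 ± 0.12 (SE, adjusted p = 3.7e-14) and 1.96 on its other probe set. The first of these probe sets was tested through hypothalamus arrays only, which favours a difference in that direction. Calb1, the calcium buffer calbindin, measured 484 to 657 in hypothalamus arrays (median 563), against 88.6 to 168 in PAG arrays (median 122), also without overlap (log2 difference 2.12 ± 0.07 SE, adjusted p = 1.3e-15). Calb1 stood at 291 ± 48.8 (SD) in 12 hippocampus arrays. Hdc, the enzyme that makes histamine in tuberomammillary neurons of the posterior hypothalamus, measured 114 to 347 in hypothalamus and 11.5 to 88.5 in PAG, without overlap (log2 difference 1.86 ± 0.10 SE, adjusted p = 3.4e-12).

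On the PAG side, the largest difference was that of Slc6a4, the serotonin transporter, by which serotonergic neurons take serotonin back up. Its intensity was -9.56 to 8.83 in hypothalamus arrays (median 2.19), against 616 to 1329 in PAG arrays (median 914). The hypothalamus values lay near 0 and no array overlapped, with a log2 difference of -5.68 ± 0.09 (SE, adjusted p = 3.2e-22). A dimmer probe set of Slc6a4 gave -1.21. Of 10 tested genes of the serotonergic list, 1 was higher in hypothalamus, 7 were lower and 2 did not pass the test (median log2 difference -0.81), and 6 of the 10 were tested through PAG arrays only. Tph2, Fev and Slc18a2 were not analysed here.

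The other serotonergic members that fell in hypothalamus included enzymes of serotonin and cofactor synthesis and transcription factors. Ddc, the decarboxylase that completes serotonin and dopamine synthesis, measured 220.4 to 352 in hypothalamus arrays (median 295), against 620.0 to 1318 in PAG arrays (median 862), without overlap (log2 difference -1.56 ± 0.07 SE, adjusted p = 2.4e-13). Gch1, the first enzyme of the cofactor tetrahydrobiopterin, measured 0.450 to 38.6 in hypothalamus and 39.1 to 99.8 in PAG, where the highest hypothalamus and lowest PAG arrays almost met (log2 difference -1.49 ± 0.12 SE, adjusted p = 2.7e-09). Qdpr, which recycles the cofactor, differed by -0.69 ± 0.05 (SE, adjusted p = 8.9e-10). Gata3 and Gata2, zinc finger factors of serotonergic and GABAergic midbrain neurons, differed by -3.19 ± 0.11 (SE, adjusted p = 1.3e-15) and -0.94 ± 0.08 (SE, adjusted p = 1.4e-08), and Htr5b, a serotonin receptor, by -0.44 ± 0.13 (SE, adjusted p = 0.013). Pts, an enzyme of the same cofactor, and the autoreceptor Htr1a did not pass (0.03, adjusted p = 0.73, and -0.29, adjusted p = 0.051). Lmx1b, a homeobox factor of serotonergic and dopaminergic neurons, was the 1 member higher in hypothalamus, at 0.46 ± 0.17 (SE, adjusted p = 0.038). It was not called in 12 of the 24 fits that left out 1 array (adjusted p up to 0.076), nor with scan day as a random block, where 0 members of the list were higher.

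**Figure D3:**
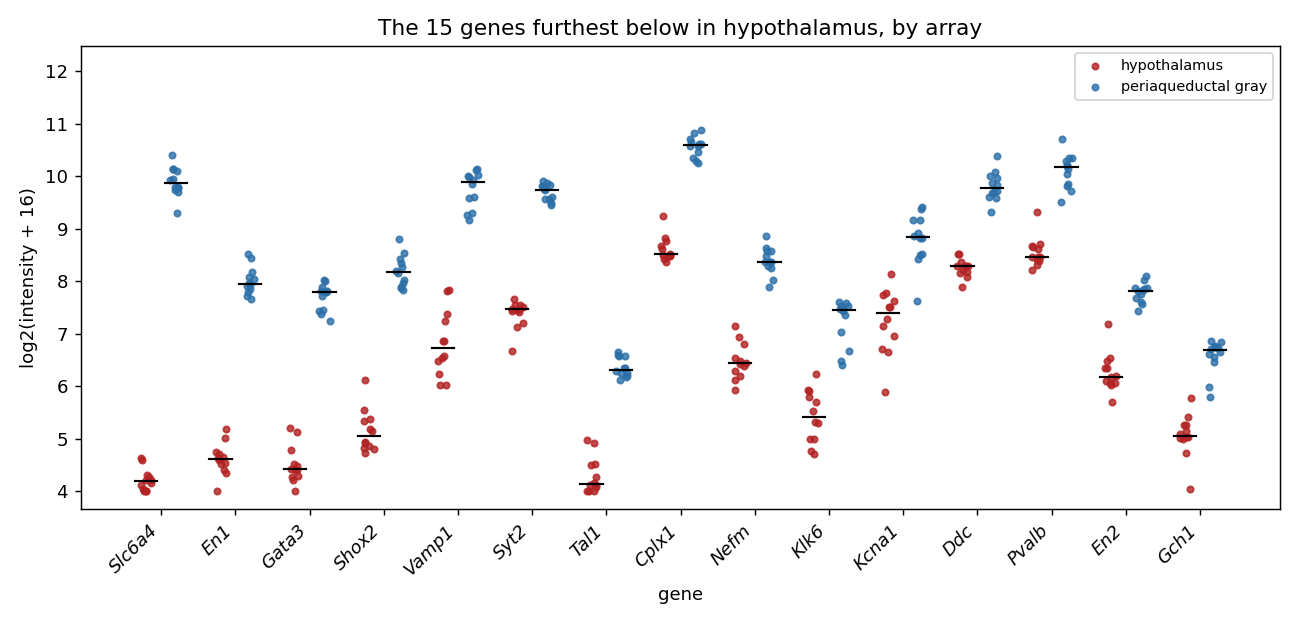
Intensity in each array of the 15 genes furthest below in hypothalamus, as log2(intensity + 16), with 12 hypothalamus arrays (red, left) and 12 periaqueductal gray arrays (blue, right) per gene and the median as a black bar. The regions are separate in Slc6a4, where hypothalamus reaches 8.83 and periaqueductal gray starts at 616, and they overlap in Kcna1.

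Transcription factors of the midbrain and hindbrain were mostly lower. Of 18 tested, 2 were higher in hypothalamus, 10 were lower and 6 did not pass the test (median log2 difference -0.55), and 4 of the 18 were tested through PAG arrays only. En1, a homeobox factor that sets up the midbrain, measured -0.310 to 20.1 in hypothalamus arrays (median 8.41), against 185 to 348 in PAG arrays (median 231), and its paralogue En2 35.8 to 129 in hypothalamus and 156 to 257 in PAG. Neither overlapped, and their log2 differences were -3.39 ± 0.10 (SE, adjusted p = 3.4e-17) and -1.52 ± 0.08 (SE, adjusted p = 4.6e-12). Gata3 measured -4.04 to 20.6 in hypothalamus and 135 to 243 in PAG, and Tal1, a basic helix-loop-helix factor that acts with Gata factors in midbrain GABAergic neurons, -8.34 to 15.3 in hypothalamus and 53.5 to 84.7 in PAG, both without overlap (log2 difference -2.06 ± 0.10 SE, adjusted p = 8.1e-13). En1, Gata3 and Tal1 entered the test through PAG arrays only, and Avp and Hcrt through hypothalamus arrays only, so their levels are a description of the labelled regions and no test of the labels.

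Further members were lower by less. Irx3, an Iroquois homeobox factor, differed by -1.42 ± 0.13 (SE, adjusted p = 1e-08), and Tcf7l2, a Wnt pathway factor abundant in thalamus and midbrain, by -1.09 ± 0.14 (SE, adjusted p = 2.7e-06). The difference of Tcf7l2 was 0.0086 in C3H/HeJ, against -1.65 to -0.89 in the other strains. Ebf3 and Ebf2, helix-loop-helix factors, differed by -0.80 ± 0.07 (SE, adjusted p = 5.1e-09) and -0.57 ± 0.06 (SE, adjusted p = 3.3e-07), and Nkx6-2, an oligodendrocyte and neuronal homeobox factor, by -0.53 ± 0.10 (SE, adjusted p = 0.00026). Zic1, a zinc finger factor of dorsal neural tissue, was higher in hypothalamus at 286 to 698 in hypothalamus arrays (median 347), against 35.1 to 562 in PAG arrays (median 215). Its PAG arrays were spread widely, with A/J replicate 2 at 562 and DBA/2J replicate 2 at 421, the same 2 arrays that were high in Tac2. The log2 difference of Zic1 was 1.03 ± 0.29 (SE, adjusted p = 0.0076), and with scan day as a random block it did not pass (adjusted p = 0.14). The members that did not pass were Pitx3 (0.25), Nr4a2 (-0.26), Lhx1 (0.19), Zic2 (0.12), Pax5 (-0.12) and Pax6 (0.07). Shox2, a homeobox factor outside that list, measured 10.6 to 53.7 in hypothalamus arrays (median 17.2), against 210.1 to 432 in PAG arrays (median 272), without overlap (log2 difference -3.04 ± 0.13 SE, adjusted p = 2.6e-14), and 653 ± 116 (SD) in the bed nucleus arrays. Shox2 was tested through PAG arrays only, which favours a difference in that direction.

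Catecholamine genes had more lower than higher members. Among all 5579 tested genes 1045 were higher and 1055 lower, and the cholinergic counts below lie near that share. Of 14 tested members, 1 was higher in hypothalamus, 8 were lower and 5 did not pass the test (median log2 difference -0.29), a list that shares Ddc, En1, Nr4a2 and Pitx3 with those above. Of the 14, 3 were tested through PAG arrays only, En1 and Slc6a3 among them. Aldh1a1, an aldehyde dehydrogenase of ventral midbrain dopamine neurons, differed by -1.19 ± 0.09 (SE, adjusted p = 1.7e-09), and Sncg, gamma-synuclein, by -0.78 ± 0.08 (SE, adjusted p = 1.3e-07). Slc6a3, the dopamine transporter, was high in 1 array only, at 313 in PAG replicate 1 of 129S6/SvEvTac, while the other 23 arrays lay at 56.0 or less. Its log2 difference was -0.90 ± 0.31 (SE, adjusted p = 0.027), and -0.59 without that array. Sex steroid and stress hormone receptors gave 0 higher and 1 lower of 6 tested (median 0.07), the lower one being Hsd11b1, which regenerates active glucocorticoid (log2 difference -0.35 ± 0.07 SE, adjusted p = 0.0002), and cholinergic and motor genes 1 higher and 1 lower of 4 tested (median 0.04), where acetylcholinesterase, Ache, was lower (log2 difference -0.30 ± 0.09 SE, adjusted p = 0.0086).

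Vamp1, Syt2, Cplx1 and Kcna1 was also among the 15 furthest below. Vamp1, a vesicle protein of the release machinery, measured 48.5 to 211 in hypothalamus arrays (median 89.8), against 556 to 1111 in PAG arrays (median 932), and Syt2, a calcium sensor of fast release, 85.5 to 186 in hypothalamus and 685 to 949 in PAG. Both were free of overlap, with log2 differences of -2.93 ± 0.15 (SE, adjusted p = 1.3e-12) and -2.32 ± 0.09 (SE, adjusted p = 1.2e-14), and -0.86 and -0.93 on their dimmer probe sets. Cplx1, complexin, which clamps vesicles before release, measured 314 to 592 in hypothalamus and 1198 to 1875 in PAG (log2 difference -1.95 ± 0.09 SE, adjusted p = 2.4e-13). Kcna1, a potassium channel subunit of axons, measured 43.0 to 264 in hypothalamus arrays (median 152), against 182 to 666 in PAG arrays (median 443), with overlapping arrays (log2 difference -1.56 ± 0.17 SE, adjusted p = 3.1e-07).

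Calcium-binding proteins and neurofilaments were mixed, with more lower than higher members. Of 15 tested, 2 were higher in hypothalamus, 9 were lower and 4 did not pass the test (median log2 difference -0.28), Calb1 being the largest of the higher ones. Pvalb, parvalbumin, measured 281 to 621 in hypothalamus and 709 to 1648 in PAG (log2 difference -1.54 ± 0.12 SE, adjusted p = 8.9e-10), and its dimmer probe set gave -1.19. The neurofilament genes Nefm, Nefh and Nefl, whose proteins fill large axons, all fell, with log2 differences of -1.92 ± 0.10 (SE, adjusted p = 6.8e-13), -1.25 ± 0.09 (SE, adjusted p = 2.3e-10) and -1.01 ± 0.05 (SE, adjusted p = 2.5e-12). None of these neurofilament genes overlapped between the regions.

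Voltage-gated ion channels were divided, 6 higher and 10 lower of 26 tested (median 0.10). Of the 26, 3 were tested through hypothalamus arrays only, Kcna5 among them. Of all 5579 tested genes, 1045 were higher and 1055 lower. Some counts of this paragraph lie near that share, such as the 6 higher channels and the 3 higher GABA and glycine genes. Kcna5 was higher by 1.19 ± 0.08 (SE, adjusted p = 5.6e-11), whereas Kcnab2 and Kcnab3, beta subunits of potassium channels, were lower at -0.99 ± 0.08 (SE, adjusted p = 5.1e-09) and -0.92 ± 0.08 (SE, adjusted p = 1e-08), as was the sodium channel gene Scn1a at -0.77 ± 0.07 (SE, adjusted p = 8.3e-09). In GABA and glycine transmission (3 higher and 6 lower of 14 tested, median -0.01), the GABA receptor subunits Gabra2, Gabrg1 and Gabrb1 was higher at 0.87, 0.51 and 0.36. The glycine transporter Slc6a9 and the glycine receptor subunit Glrb were lower at -0.62 and -0.41. In glutamate transmission (5 higher and 3 lower of 12 tested, median 0.08), the receptor subunits Gria1, Grik1 and Gria2 were higher at 0.51, 0.44 and 0.35. Axon guidance and adhesion genes gave 8 higher and 6 lower of 25 tested (median 0.02), with the ligand Efnb2 at 1.17 ± 0.06 (SE, adjusted p = 4.8e-13), the netrin receptor Unc5c at 0.74 and the semaphorin receptor Nrp1 at 0.49 higher, and the semaphorin Sema7a at -0.90 ± 0.08 (SE, adjusted p = 1.8e-08) and the Slit receptor Robo1 at -0.45 lower.

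Myelin genes were lower in hypothalamus almost throughout. Of 14 tested myelin and oligodendrocyte genes, 1 was higher in hypothalamus, 13 were lower and 0 did not pass the test (median log2 difference -0.55). Mag, an adhesion protein of the inner myelin wrap, measured 126 to 396 in hypothalamus arrays (median 218), against 335 to 771 in PAG arrays (median 599), and Mobp, a basic protein of compact myelin, 683 to 1926 in hypothalamus arrays (median 1018), against 1786 to 3374 in PAG arrays (median 2417). The regions overlapped in both genes, and the log2 differences were -1.29 ± 0.12 (SE, adjusted p = 2.2e-08) and -1.20 ± 0.09 (SE, adjusted p = 1.4e-09). Mog, on the outer myelin surface, Ugt8a, which makes a myelin lipid, and Car2, a carbonic anhydrase, differed by -0.84, -0.90 and -0.74. The 1 higher member, Pdgfra, the receptor of oligodendrocyte precursors, differed by 0.33. The summed intensity of the 14 genes was 6057 to 10004 in hypothalamus arrays (median 7866), against 10876 to 13549 in PAG arrays (median 12529.8), with no overlap. The 2 probe sets of Mbp disagreed (-0.57 and 0.48), and the brighter one was counted. Sox10 and Qk, counted as lower at -0.52 and -0.32, were not called on a dimmer probe set each (0.0021 and -0.0042). Klk6, a protease of oligodendrocytes, was among the 15 furthest below at 10.2 to 58.7 in hypothalamus and 68.5 to 178 in PAG (log2 difference -1.79 ± 0.14 SE, adjusted p = 1.2e-09). Klk6 was tested through PAG arrays only, which favours a difference in that direction.

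Astrocyte genes were mixed, 2 higher and 5 lower of 12 tested (median -0.08). The share over all 5579 tested genes was 1045 higher and 1055 lower, and the ependymal and tanycyte counts below lie near it. Gfap, the astrocyte intermediate filament, measured 276 to 967 in hypothalamus arrays (median 404), against 82.4 to 178 in PAG arrays (median 118), with every hypothalamus array above every PAG array (log2 difference 1.72 ± 0.13 SE, adjusted p = 4.7e-10), while the water channel Aqp4, the glycolytic enzyme Aldoc and S100b were lower at -0.54, -0.45 and -0.23. Microglial genes gave 3 higher and 0 lower of 8 tested (median 0.16), with Ctss at 0.29 and Tyrobp at 0.23. Endothelial and pericyte genes gave 0 higher and 2 lower of 12 tested (median -0.03). Ependymal and tanycyte genes gave 2 higher and 2 lower of 9 tested (median 0.01). The highest was Six3, shared with a list above, at 1.48, and Foxj1, a factor of ciliated cells, was lower at -0.42. Choroid plexus genes gave 1 higher and 0 lower of 3 tested (median 0.06), where the defining gene Ttr, transthyretin, measured 15.2 to 84.2 in hypothalamus and 16.5 to 49.6 in PAG.

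**Figure D4:**
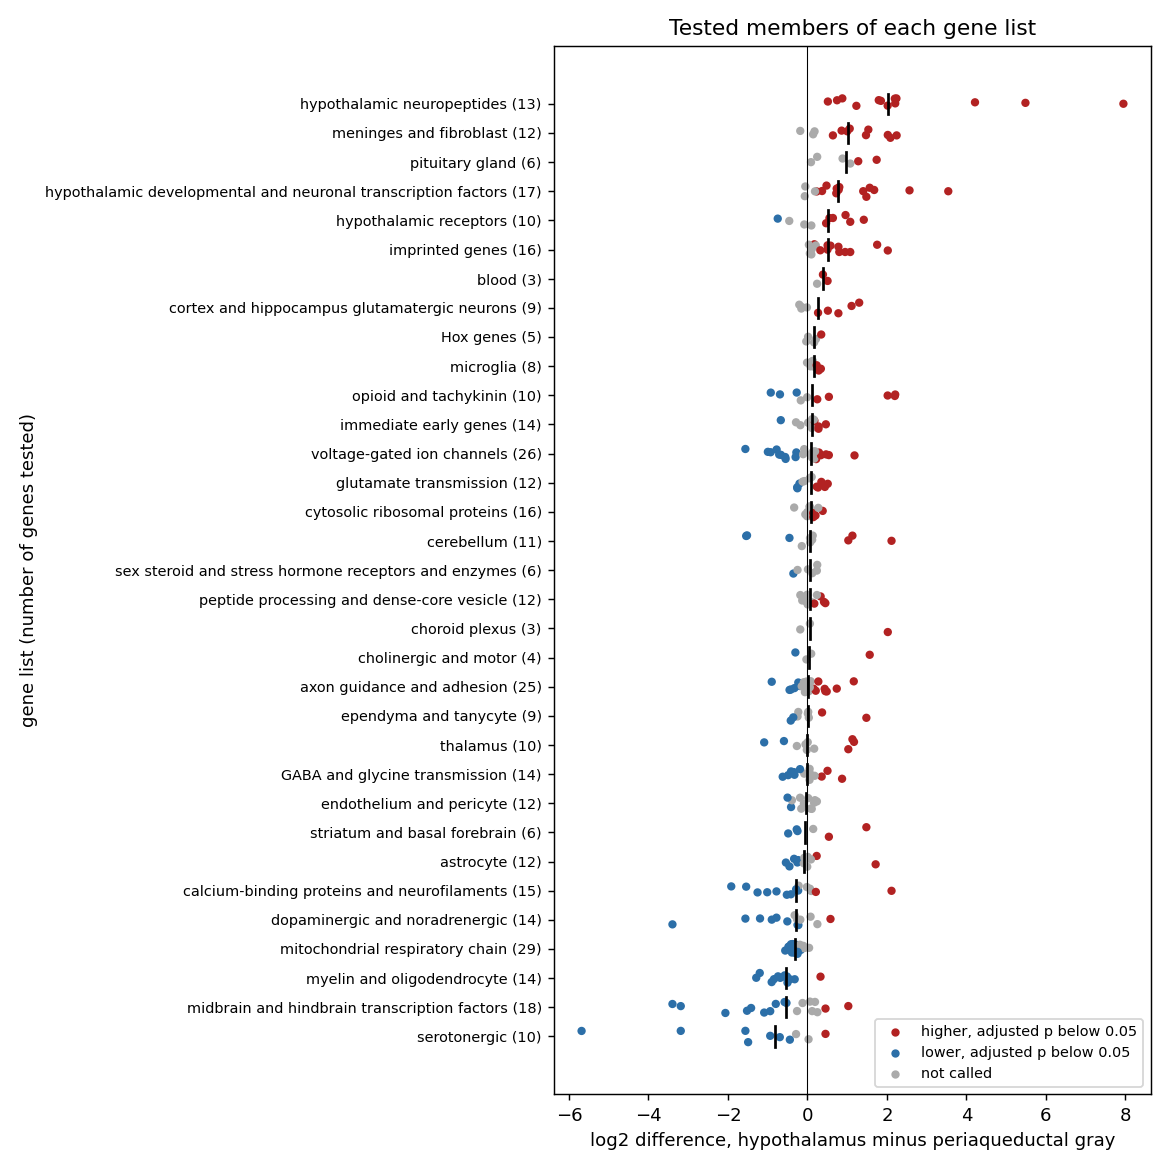
Log2 difference (hypothalamus minus periaqueductal gray, x axis) of each tested member of the gene lists, ordered by median (black bar). Red points passed the test as higher and blue points as lower in hypothalamus at adjusted p below 0.05, and grey points did not pass. Neuropeptides lie at the top with a median of 2.02, and the serotonergic list has the lowest median, -0.81.

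Genes of the mitochondrial respiratory chain shifted by a small amount. Of 29 tested, 0 were higher in hypothalamus, 24 were lower and 5 did not pass the test (median log2 difference -0.30). Cyc1, Ndufv2, Atp5l and Atp5c1, counted as lower, were not called on a dimmer probe set each (0.08, 0.02, 0.0052 and -0.12). Atp5d, not called, was lower on 1 dimmer probe set (-0.48). Uqcrc1, a subunit of complex III, measured 767 to 1151 in hypothalamus arrays (median 942), against 1169 to 1697 in PAG arrays (median 1431), without overlap (log2 difference -0.56 ± 0.07 SE, adjusted p = 9e-07). Ndufv1 of complex I, Atp5o of the ATP synthase, Cox7a2 of complex IV and Uqcrq of complex III differed by -0.48, -0.45, -0.41 and -0.39. The summed intensity of the 29 genes was 26699 to 30743 in hypothalamus arrays (median 29301), against 33455 to 39741 in PAG arrays (median 35786), with no overlap. With arrays centred on the median 26 were lower, with quantile normalization 21, and with scan day as a random block 23. Cytosolic ribosomal protein genes gave 4 higher and 0 lower of 16 tested (median 0.08), among them Rpl32 at 0.39 and Rpl13a at 0.20. The 4 higher lie near the share over all tested genes, 1045 of 5579. After median centring the median of the ribosomal list was -0.01 with 1 higher and 1 lower.

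Marker lists of other brain regions were tested because a dissection may hold neighbouring tissue. Beside them, 1045 of all 5579 tested genes were higher and 1055 lower, and several counts below lie near that share. Cortical and hippocampal genes gave 5 higher and 0 lower of 9 tested (median 0.27), with Wfs1, an endoplasmic reticulum protein, at 1.3 ± 0.08 (SE, adjusted p = 3.1e-11), Nrgn, neurogranin, at 1.11 ± 0.11 (SE, adjusted p = 1e-07) and Zbtb20 at 0.27. Striatal genes gave 2 higher and 3 lower of 6 tested (median -0.05). The higher ones were Six3, at 1.48, and Tac1, and the lower ones included the phosphodiesterase Pde1b, at -0.48, and Penk. Six3, Tac1 and Penk are shared with lists above. Thalamic genes gave 3 higher and 2 lower of 10 tested (median -0.0027), with Rgs16, which shortens G protein signals, at 1.17 ± 0.08 (SE, adjusted p = 2.4e-10), Cbln1, a synaptic organiser, at 1.13 ± 0.09 (SE, adjusted p = 2.6e-09) and the RNA editing enzyme Adarb1 at -0.59. Cerebellar genes gave 3 higher and 3 lower of 11 tested (median 0.07). Immediate early genes, which neuronal activity induces, gave 4 higher and 1 lower of 14 tested (median 0.12), with Per1 at 0.28, not called in 14 of the 24 fits that left out 1 array (adjusted p up to 0.081), and Btg2 at 0.18. Hox genes of the hindbrain gave 1 higher and 0 lower of 5 tested (median 0.17).

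Pituitary and meningeal genes varied strongly from array to array. Both tissues adjoin the ventral surface of the hypothalamus. Of 6 tested pituitary genes, 2 were higher in hypothalamus, 0 were lower and 4 did not pass the test (median log2 difference 0.98). Of the 6, Tshb was tested through hypothalamus arrays only, which favours a difference in that direction. Gh, growth hormone, named here after its values were seen, measured 61.8 to 6967 in hypothalamus arrays (median 747), against 37.1 to 5215 in PAG arrays (median 227). Its high values fell in both regions, at 6967 in hypothalamus replicate 1 of C57BL/6J against 61.8 in replicate 2 of the same animals, and at 5215 in PAG replicate 1 of FVB/NJ. Gh did not pass the test (log2 difference 1.08 ± 0.78 SE, adjusted p = 0.28). Cga, the alpha subunit shared by thyrotropin and the gonadotropins, measured 34.1 to 446 in hypothalamus arrays (median 281), against 22.5 to 356 in PAG arrays (median 32.0), with FVB/NJ replicate 1 the high PAG array (log2 difference 1.74 ± 0.34 SE, adjusted p = 0.0003). Tshb, the beta subunit of thyrotropin, was above 100 only in the 4 hypothalamus arrays of A/J and C3H/HeJ, at 173 to 392, and lay at 36.7 or less in the other 20 arrays. Its log2 difference was 1.28 ± 0.32 (SE, adjusted p = 0.0037), and 0.81 without C3H/HeJ. The summed intensity of the 6 pituitary genes was 318 to 8322 in hypothalamus arrays (median 1414), against 243 to 6511 in PAG arrays (median 496), and its part in the differences of Pomc and other genes was not tested.

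Of 12 tested meningeal and fibroblast genes, 9 were higher in hypothalamus, 0 were lower and 3 did not pass the test (median log2 difference 1.03). Of the 12, Fmod and Ogn were tested through hypothalamus arrays only, which favours a difference in that direction. Fmod, a collagen-binding proteoglycan, measured 12.1 to 382 in hypothalamus arrays (median 112), against -1.56 to 28.7 in PAG arrays (median 10.4). Mgp, an inhibitor of calcification, measured 46.0 to 592 in hypothalamus arrays (median 321), against 25.9 to 80.9 in PAG arrays (median 61.7). Igf2, a growth factor of meninges and choroid plexus, measured 207 to 1834 in hypothalamus arrays (median 817), against 95.8 to 250.2 in PAG arrays (median 148). For Fmod and Mgp, replicate 2 of 129S6/SvEvTac was the lowest hypothalamus array, at 12.1 and 46.0, within the range of PAG. For Igf2, hypothalamus replicate 2 of C3H/HeJ (207) and replicate 2 of 129S6/SvEvTac (245) lay within it. The log2 differences were 2.25 ± 0.24 (SE, adjusted p = 1.8e-07), 2.09 ± 0.19 (SE, adjusted p = 2e-08) and 2.02 ± 0.24 (SE, adjusted p = 1.1e-06), followed by Ogn, a proteoglycan, at 1.53 ± 0.21 (SE, adjusted p = 5e-06) and Slc6a13, a meningeal GABA transporter, at 1.07 ± 0.09 (SE, adjusted p = 8.4e-09). Col1a1 and Col1a2 measured 0.18 and 0.14 on their brighter probe sets and 1.15 and 1.60 on others. The summed intensity of the 12 genes was 1964 to 13714 in hypothalamus arrays (median 8198), against 1674 to 3923 in PAG arrays (median 3054). The haemoglobin gene Hba-a1, 1 of 2 of the 3 tested blood genes that were higher, differed by 0.51. The part of meningeal tissue in other differences was not tested.

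**Figure D5:**
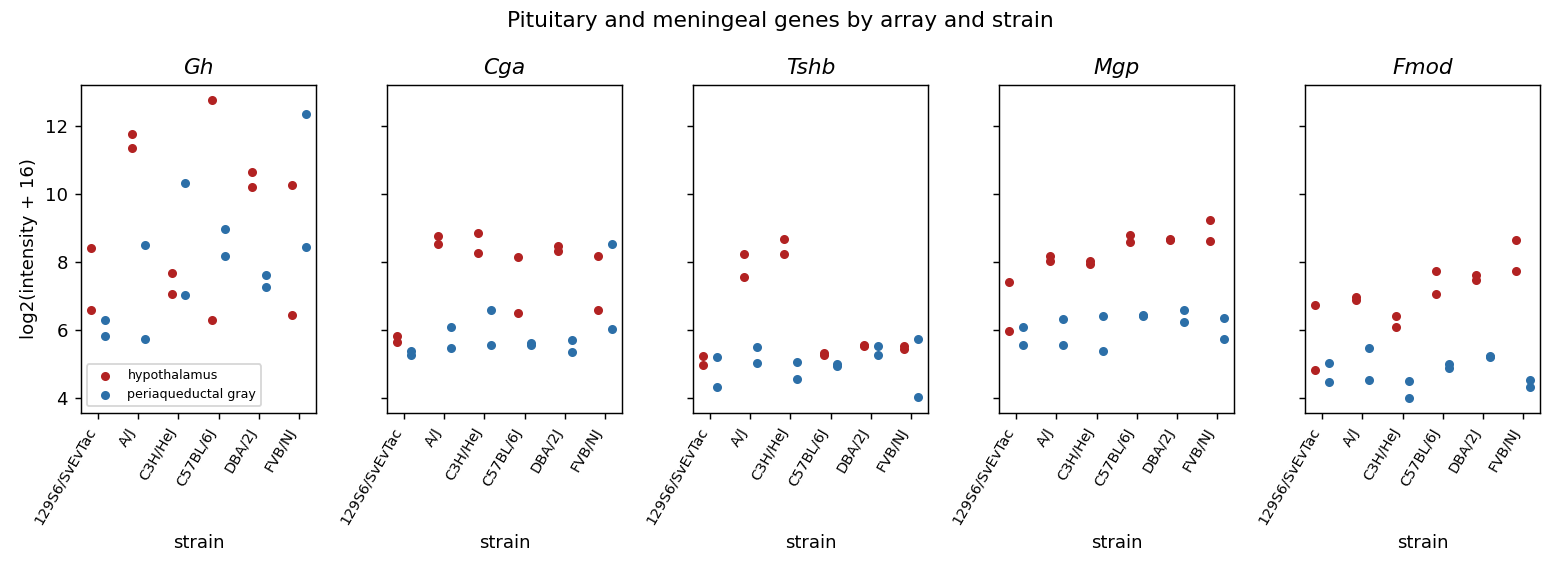
Intensity of 3 pituitary genes (Gh, Cga, Tshb) and 2 meningeal genes (Mgp, Fmod) as log2(intensity + 16) in each array by strain, with 2 hypothalamus arrays (red, left) and 2 periaqueductal gray arrays (blue, right) per strain. Gh is high in single arrays of both regions, Tshb in hypothalamus of A/J and C3H/HeJ, and Mgp and Fmod are low in 1 hypothalamus array of 129S6/SvEvTac.

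The regional difference was then examined in each strain, with 2 arrays against 2 and a spread shared by all 12 groups. In every one of the 6 strains 38 probe sets (0.52%) were called at 2-fold or more, 24 higher and 14 lower. The difference of Avp ranged from 7.67 in FVB/NJ to 8.24 in C3H/HeJ, and that of Oxt from 4.79 in FVB/NJ to 6.40 in A/J. An F test of whether the difference depends on strain called 552 probe sets (7.55%), of which 19 were among the 122 of 2-fold or more and 34 had the same sign in all strains. This count changed with the arrays used, as 109 were called without FVB/NJ, 277 without C3H/HeJ, 295 without PAG replicate 1 of FVB/NJ, 1285 without PAG replicate 2 of DBA/2J and 14 with scan day as a random block.

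Of genes with the same sign in all strains, Tshb had the largest F (14.3, adjusted p = 0.0049), with a difference of 3.64 in C3H/HeJ and 2.63 in A/J, against 0.14 to 0.61 in the other strains. Oxt (F = 10.1) followed the range given above. Tal1 (F = 9.76) ranged from -2.56 in A/J to -1.36 in C3H/HeJ, and Kcna1 (F = 9.32) from -2.55 in C3H/HeJ to -0.37 in DBA/2J. Mab21l2, a developmental gene of eye and midbrain (F = 9.25), lay at -2.12 to -1.84 in C57BL/6J, DBA/2J and FVB/NJ and at -1.0 to -0.68 in the other strains. Mobp on a second probe set (F = 9.45) ranged from -1.67 in C3H/HeJ to -0.70 in DBA/2J. Csrp1, a LIM domain protein (F = 10.2), ranged from -1.11 in C3H/HeJ to only -0.055 in FVB/NJ. Gnb1, a G protein beta subunit (F = 8.79), ranged from -0.77 (A/J) to -0.050 (DBA/2J). Its values for FVB/NJ and C57BL/6J were as small, -0.052 and -0.058. The C57BL/6J arrays of both regions measured 47.0 to 60.3 for Gnb1, near the filter value of 58.1, and all other arrays 312 or more. All 8 had adjusted p of 0.0049 to 0.016, and 0.094 to 0.17 with scan day as a random block, where none was called.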

How the data were processed

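Measured were the hypothalamus and PAG of 6 strains, with 12 arrays each. The authors deposited 1 background-subtracted intensity per probe set and array on a linear scale, read from the series matrix, in which 4.04 to 7.80% of the values of a hypothalamus array and 4.72 to 7.64% of those of a PAG array lie below 0. The software behind the values is not given in the sources used here, nor is their scaling. The log2 medians of the 24 arrays spanned 0.28, within the 0.5 allowed for use of the deposited values without further scaling. The deposited intensity was tested on a log2 scale: negative values were raised to 0, 16 was added and log2 was taken. Sums and group means are given as intensities.

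The array carries 12488 probe sets, and its 66 controls were not used. In the array's annotation 10833 of the rest had 1 gene symbol, 396 several and 1193 none, and 10817 symbols were updated by gene identifier. Only probe sets with 1 symbol were named: 6627 tested, for 5579 genes. A linear model with strain and region was fitted with limma (version 3.58.1), statmod 1.5.0 and data.table (1.17.8) under R 4.3.3, with Benjamini-Hochberg adjustment over all tested probe sets and calls at adjusted p below 0.05. The procedure was tested on simulated data with independent noise for each array. Those data held no effect of scan day, chip lot or shared animals, so the test does not cover such effects. The interaction is an F test with 5 degrees of freedom from 12 group means. A list member was counted as higher or lower at adjusted p below 0.05 at any size, by its brightest tested probe set.

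Named are, among genes of 1 symbol whose sign was the same in every strain, the 15 with the largest and the 15 with the most negative difference of 2-fold or more, the 8 with the largest interaction F, up to 5 called members of each list, and all tested members of 4 lists (neuropeptides, opioids and tachykinins, serotonergic genes, midbrain and hindbrain factors). The members and lists were chosen with earlier results of these data known. The number of arrays limits the precision.

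The labels' replicate numbers were not used as pairs in the main fit. Deviations from group means of same-numbered hypothalamus and PAG arrays correlated at -0.13 to 0.11 over the strains. Such a correlation cannot show whether animals were shared. The labels name shared animals on both C57BL/6J hypothalamus arrays and on 1 hypothalamus and 1 PAG array each of C3H/HeJ and of DBA/2J. In C3H/HeJ these are replicate 2 of both regions, and in DBA/2J hypothalamus replicate 2 and PAG replicate 1. File headers gave 10 scan days and 6 chip lots, and 17 arrays were scanned 2 times. Alternatives tried were other scalings, added constants and filters, more arrays, blocks for replicate, animals, scan day, number of scans and chip lot, and fits without single arrays, strains or replicates.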

Additional observations from a re-analysis of the deposited data

Results flagged for a closer look

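The F test of the interaction, which asks whether the difference between hypothalamus and PAG depends on the strain, called 552 probe sets. With scan day as a random block it called 14. Only 1 of 10 scan days held both regions, so the F test does not fully separate strain from scan day. The F values of the genes with the same sign in all strains were 14.3 for Tshb, 10.2 for Csrp1, 10.1 for Oxt, 9.76 for Tal1, 9.45 for Mobp, 9.32 for Kcna1, 9.25 for Mab21l2 and 8.79 for Gnb1. None of these was called with scan day as a random block.

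Larger F values belonged to genes whose difference changed sign among the strains, named here after their values were seen: Grb10 (27.0), Map1lc3a (26.4), Alox15 (23.0), Tkt (21.3), Trappc3 (20.7), Gsta4 (18.6), Dnajc7 (18.2) and Cel (18). All 8 stayed below an adjusted p of 0.05 with scan day as a random block. Alox15, a lipoxygenase, was lower in hypothalamus in DBA/2J (-1.81), where the PAG arrays measured 92.1 and 67.8, and in A/J (-0.75), while the other differences lay between -0.08 and 0.24. Gsta4, a glutathione transferase, ranged from -1.41 in C3H/HeJ to 0.0019 in FVB/NJ, so its sign changed only through a value near 0. Cel, a lipase, was higher in hypothalamus in 129S6/SvEvTac (2.23) and A/J (1.52) and lower in C3H/HeJ (-0.80).

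Some of these genes separated the arrays by chip lot, whatever the region or strain. Dnajc7 measured 462 to 636 on the 13 arrays of 2 lots and 185 to 346 on the 11 arrays of the other lots. Trappc3 measured 268 to 341 on the same 13 arrays and 115 to 183 on the other 11, and Grb10 148 to 208 against 45.7 to 127. Such separation by lot held for 10 of the 552 probe sets (1.81%), against 14 of all 7310 tested (0.192%) and 0 of the 122 called at 2-fold or more between the regions. The 2 lots held the hypothalamus arrays of DBA/2J and the PAG arrays of C3H/HeJ, and the other lots held the reverse. A probe set separated by lot therefore has opposite regional differences in these strains. The layout thus favours such probe sets among the 552 and disfavours them among the 122, so these shares are no test of the lot. The part of the chip lot in the interaction was not tested.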

How the results depend on the processing

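Counts of 2-fold calls depended on the added constant: with 64 in place of 16, 32 probe sets were higher, 21 lower and 23 called within every strain, and with 4, 103 were higher, 56 lower and 45 called within every strain. On the 7 arrays scanned 1 time, with 2 residual degrees of freedom, 30 were higher and 58 differed at any size. At any size, 1683 differed with scan day as a random block, 1540 in the 2 strains with a chip lot shared by both regions, 855 without replicate 1 and 963 without replicate 2. Leaving out 1 array or 1 replicate number gave 68 to 83 higher, 40 to 46 lower, 855 to 2770 at any size, 34 to 43 within every strain and 295 to 1285 with an interaction. Of the 122 calls, 117 were shared after quantile normalization (1201 higher and 1360 lower at any size), 112 after median centring, which moved the median of all differences to -0.06, and 116 with the scan day block. The interaction count was 235 without a filter, 102 with all 87 arrays, 206 with the replicate block, 894 with named animals as a random block, 14 with scan day, 17 on the shared chip lot, 337 with the C57BL/6J hypothalamus arrays averaged, 246 without shared animals, 277 without C3H/HeJ and 109 without FVB/NJ. By array, it was 301 and 335 without hypothalamus replicate 1 of C57BL/6J and of FVB/NJ, and 363, 1285, 295 and 355 without PAG C3H/HeJ 1, DBA/2J 2, FVB/NJ 1 and FVB/NJ 2. The replicate block left 81 higher, 41 lower and 2466 at any size.

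Of 132 named differences, 31 kept their direction and side of the threshold under every alternative run. When the fit on only the 7 arrays scanned 1 time is not counted among the alternatives, 94 did so. On those 7 arrays the sign turned for Lmx1b (-0.22), Zic1 (-0.118), Oprl1 (-0.0132), Tyrobp (-0.016), Foxj1 (0.0488), Pax5 (0.0477), Pts (-0.102) and Cckbr (0.404). The sign also turned for Pax6, Pitx3, Pts and Cckbr, none of which was called. Pax6 came to -0.029 with median centring, -0.0861 with chip lot as a block, -0.282 on the shared lot, -0.191 on arrays scanned 2 times, -0.000576 without DBA/2J and -0.0085 to 0.111 leaving out 1 array. Pitx3 came to -0.0151 on arrays scanned 2 times. Pts came to -0.048 with quantile normalization, -0.0655 with median centring, -0.00497 without FVB/NJ and -0.0445 to 0.103 leaving out arrays. Cckbr came to 0.0103 with the C57BL/6J arrays averaged, 0.00337 without shared animals, 0.0475, 0.029 and 0.0699 without C57BL/6J, DBA/2J and FVB/NJ, and -0.0387 to 0.0288 leaving out arrays. The cause was not tested. Scan day as a fixed block, and chip lot as a fixed block in the interaction, could not be fitted. Values below 0 and probe sets dim in both regions limit what these arrays resolve.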
